A study of Mus musculus with 6 samples.

Results

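The enzymes described here feed pyruvate into the mitochondrion, turn the citric acid cycle, act on malate, citrate and isocitrate in the cytosol, and link the cycle to glutamate, aspartate, asparagine and proline. They were taken as a list of 34 gene symbols, matched to gene identifiers through a reference table, and all 34 were found among the 55471 genes of the count table. All 34 also passed the filter on low counts. Their transcripts were counted in RNA libraries of cultured neurons from the cortex of CD1 mouse embryos (E14.5-15, genotype WT), a mixed primary culture and not a clonal line. All cultures grew in neurobasal medium with B27, N2, antibiotics and 0.6 mM L-glutamine and received 2 uM cytosine arabinoside, which kills dividing cells. At day 6 lentivirus delivered a control hairpin (shControl) or a hairpin against Opa1 (shOpa1), and at day 11 the cells were harvested. Each group held 3 libraries, numbered 1 to 3, which the labels call biological replicates. The comparison asks how transcripts change when Opa1, a GTPase that fuses inner mitochondrial membranes, is depleted. Which cells of the culture took up the virus is not given in the sources used here. The hairpin sequences and their number are not given in the sources used here.

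The pyruvate dehydrogenase complex turns pyruvate into acetyl-CoA, and citrate synthase joins it to oxaloacetate to start the cycle. In the cycle, isocitrate, 2-oxoglutarate and malate dehydrogenases make NADH for the respiratory chain, and succinyl-CoA ligase makes ATP or GTP directly. Neurons also use the cycle to make and dispose of transmitters. 2-oxoglutarate and glutamate are exchanged by aminotransferases and glutamate dehydrogenase, and the malate-aspartate shuttle, with its malate dehydrogenases and aspartate aminotransferases, moves reducing equivalents from cytosol to matrix. Proline and asparagine are made from glutamate and aspartate, and several of these biosynthetic genes are known targets of the transcription factor ATF4.

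Library totals ran from 24676709 to 32961580 counts. Opa1 was counted at 202, 205 and 202 CPM in shControl and 10.2, 8.64 and 8.50 CPM in shOpa1, a fall of 22.3-fold. CPM are counts per 1000000, with library sizes scaled by TMM, edgeR's trimmed mean of M-values. Libraries numbered 3 stood apart from the other 4 in both groups, at -29.4 and -30.4 on the second principal component of log2 CPM against 13.8 to 16.4. Genes of the mitochondrial genome took 3.19 to 5.31% of counts in shControl and 1.59 to 2.38% in shOpa1, and with these genes left out the enzyme calls given below were equal in number. Summed neuron markers (11 genes, among them Tubb3, Map2 and Snap25) stood at 9622 to 10302 CPM in shControl and 6903 to 7248 CPM in shOpa1, with 7 lower and 2 higher, and their part in the values below was not tested. Summed astrocyte markers (10 genes) stood at 322 to 528 CPM and 171 to 259 CPM, with 3 lower and 1 higher, or 8 lower and 1 higher with the replicate number as a block. Slc1a2 was the largest term of that sum, at a mean of 247 CPM in shControl and 103 CPM in shOpa1, and Gfap was the marker called higher. Over all tested genes 20.0% were called lower and 18.9% higher, 38.9% in all, or 30.7% and 28.8% with the block. The astrocyte count without the block is near that background. Sums of the other marker lists were at most 75.8 CPM for oligodendrocyte, 8.17 CPM for microglia, 16.95 CPM for endothelial and mural and 90.1 CPM for dividing progenitor genes. No marker on these lists was at 0 counts in every library. In bulk RNA, fewer cells of a type and less RNA per cell cannot be told apart.

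Of the 34 enzyme transcripts, 13 rose and 5 fell in shOpa1, and 16 did not pass an adjusted p of 0.05 (edgeR quasi-likelihood test, Benjamini-Hochberg adjustment over all 16562 tested genes). The called enzymes make up 38.2% higher and 14.7% lower, where 18.9% of all tested genes were called higher and 20.0% lower, 38.9% in all. The steepest rises belonged to Gpt2 and Aldh18a1, enzymes of alanine and proline synthesis, and the steepest falls to Pdhx, a scaffold subunit of pyruvate dehydrogenase, and Suclg2, the GTP-forming ligase subunit. The median log2 fold change was 0.17, against -0.01 over all tested genes, and 0.16, 0.22 and 0.15 within the pairs of libraries numbered 1, 2 and 3. All 3 pairs moved up for 24 enzymes and down for 9, and Pycr1 alone went both ways. No share over all tested genes was computed for these pair counts, so they cannot be set against a background. The groups did not overlap for 16 enzymes higher in shOpa1 (47.1%) and 6 lower (17.6%), where 25.8% and 26.0% of all tested genes did not overlap.

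Libraries with the same number deviated together, and the number was therefore also fitted as a block. With the block 21 enzymes rose and 8 fell, 61.8% and 23.5%, where 28.8% and 30.7% of all tested genes were called higher and lower, 59.5% in all. The added calls were Pdha1, Dlat, Dld, Pcx, Cs, Acly, Me1 and Got2 higher and Mdh2, Me3 and Glud1 lower. Aco1, Idh3g, Ogdh, Ogdhl and Pycr1 passed in neither fit. In the 4 libraries numbered 1 and 2 the counts were 20 and 8. The authors' deposited table lists 20 of the 34 higher and 8 lower at its adjusted p under 0.05, and 0 of them opposite in sign to a call here. Shares over all genes were not computed for that table or for the libraries numbered 1 and 2. Their counts therefore cannot be set against a background.

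**Figure D1:**
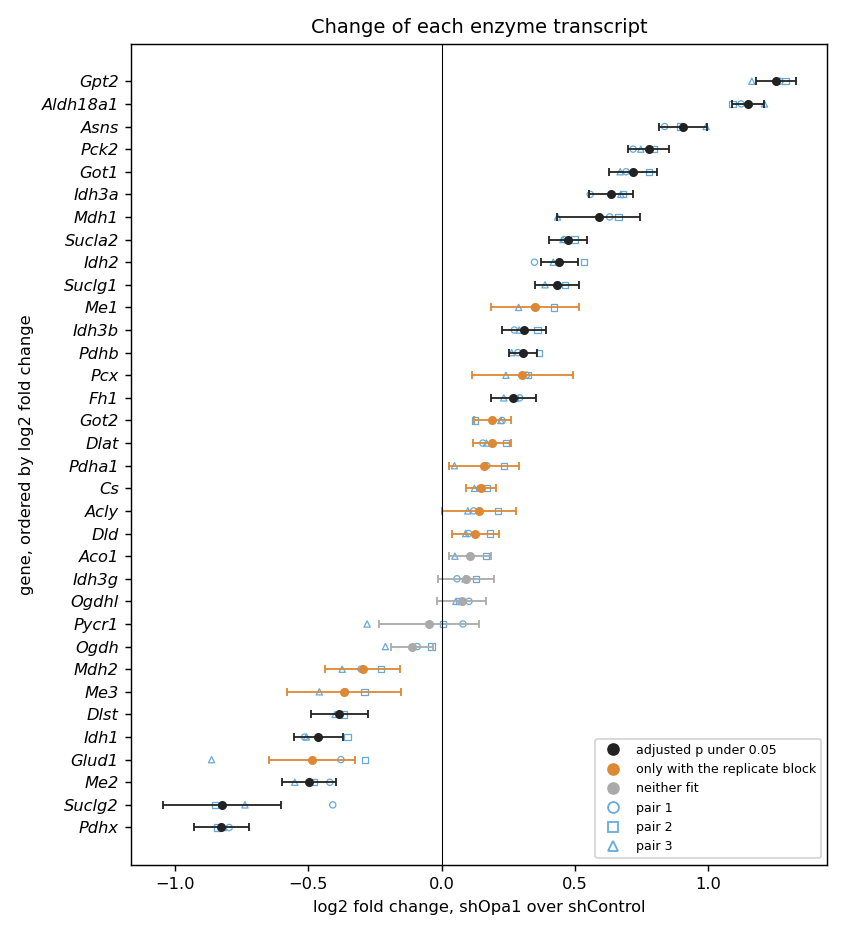
Log2 fold change of each of the 34 transcripts, shOpa1 over shControl (x axis), with its standard error as a bar, ordered from lowest to highest (y axis). Black marks the 18 that passed, orange the 11 that passed only with the replicate number as a block and grey the 5 that passed in neither fit, and open symbols give the 3 pairs on log2(CPM + 0.5), where pair 3 of Glud1 lies at -0.86.

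The enzymes spanned more than 2 orders of magnitude in level. Per kilobase of annotated exon, the most abundant transcript in shControl was Mdh1, the cytosolic malate dehydrogenase, at 187 ± 21.8 CPM per kb (SD, n = 3). It was followed by Acly, the citrate-cleaving enzyme of lipid synthesis (127 ± 20.8), Idh1 (114 ± 12.2), Mdh2 (103 ± 12.6) and Cs, citrate synthase (89.1 ± 2.20). The control libraries of Mdh1 lay above those of Acly, whereas Acly, Idh1, Mdh2 and Cs each overlapped with the next in order. The least abundant were Suclg2 at 0.729 ± 0.174, Pck2 at 1.65 ± 0.0439, Me3 at 1.95 ± 0.373 and Me2 at 2.39 ± 0.144 CPM per kb. Suclg2 lay apart from the others, Pck2 and Me3 overlapped, and Me2 lay just above Me3. In shOpa1 Mdh1 was again the highest at 281 ± 54.4 CPM per kb. Asns, the asparagine synthetase, stood at 65.0 ± 6.84 in shControl and at 122 ± 7.31 in shOpa1, where it was the third highest. Exon length here counts every annotated exon of a gene once, which understates the level of a gene whose longer exons are little used. Me3 has the most exon bases, 14624.

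**Figure D2:**
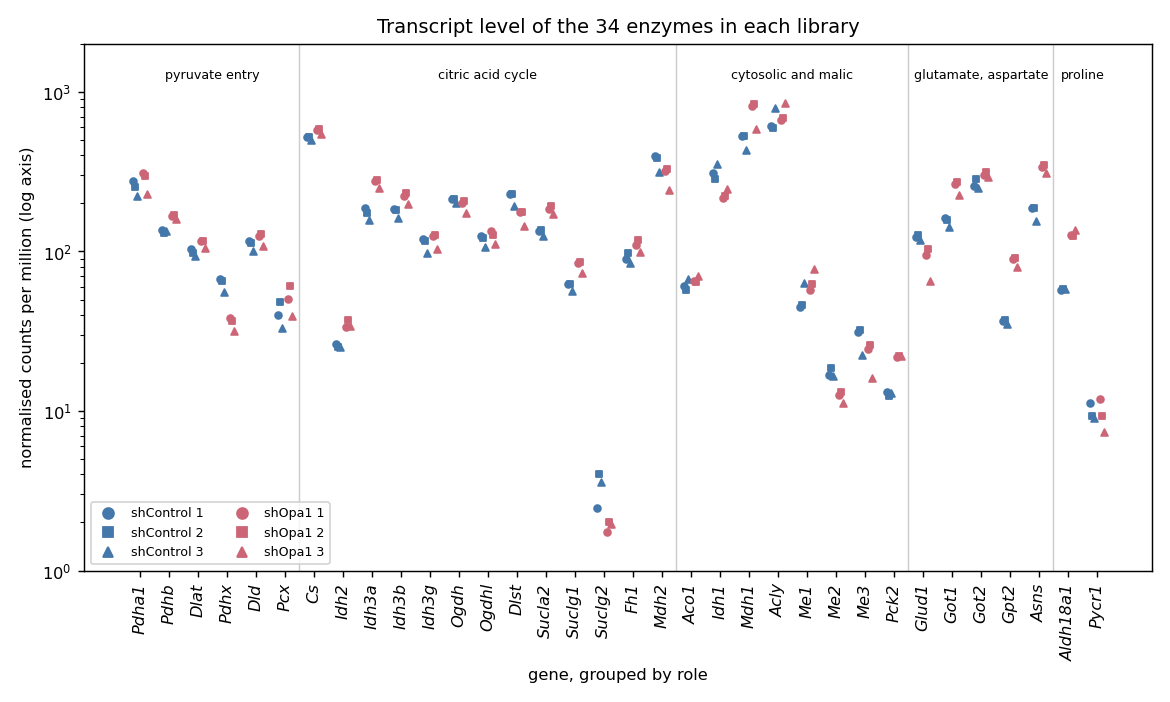
Normalised CPM on a log axis (y axis) for the 34 transcripts in the order of their roles (x axis), 1 point per library, with circles, squares and triangles for replicates 1, 2 and 3. Blue shControl and red shOpa1 points separate for Gpt2, Aldh18a1, Asns, Got1 and Pdhx and mingle for Pycr1, Ogdhl and Aco1, and libraries numbered 3 (triangles) lie apart for Me1, Me3, Acly and Mdh1.

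Subunits of the pyruvate dehydrogenase complex moved in opposite directions. Pdhx, which encodes the protein that holds the dihydrolipoamide dehydrogenase in the complex (ENSMUSG00000010914, chromosome 2, 103021075 to 103073513, minus strand, GRCm38), was at 67.1, 65.8 and 56.1 CPM in shControl and 38.4, 36.5 and 31.6 CPM in shOpa1. The highest knockdown library lay well below the lowest control library. Its log2 fold change was -0.83 (SE 0.103, adjusted p = 9.86e-04), a fall to 0.563 of the control level, and the 3 pairs gave -0.80, -0.84 and -0.82. Pdhb, the beta subunit of the decarboxylase, rose, with levels of 136, 131 and 134 CPM in shControl and 167, 168 and 161 CPM in shOpa1, with no overlap. The log2 fold change of Pdhb was 0.31 (SE 0.0534, adjusted p = 0.00393).

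The other subunits shifted by less. Dlat, the acetyl-transferring core, was at 104, 98.0 and 93.3 CPM in shControl and 116, 116 and 105 CPM in shOpa1, so the groups did not overlap. Its log2 fold change was 0.19 (SE 0.0703, adjusted p = 0.0683), and it passed with the replicate block (adjusted p = 0.00448) or without shOpa1 replicate 3 (0.0274). Pdha1, the alpha subunit, and Dld, the dehydrogenase shared with the 2-oxoglutarate complex, had log2 fold changes of 0.16 and 0.13 with overlapping groups (adjusted p = 0.385 and 0.297, with the block 0.0165 and 0.0359). Pdha1 shares 16.1% of its exon bases with Map3k15 on the opposite strand, which the counting did not separate. Map3k15 held 491 counts over all 6 libraries. Within each library the ratio of Dlat to Pdhx, per kilobase, was 1.25, 1.20 and 1.34 in shControl and 2.43, 2.56 and 2.67 in shOpa1. The balance of core to scaffold transcripts differed by 1.02 on the log2 scale without overlap (exact two-sided permutation test, p = 0.1, the smallest 3 against 3 libraries allow). The ratio of Pdha1 to Pdhb overlapped between groups (difference -0.15, exact p = 0.4).

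Pcx, the pyruvate carboxylase that makes oxaloacetate and in brain is best known from astrocytes, was at 40.1, 48.3 and 33.1 CPM in shControl and 50.1, 60.5 and 39.3 CPM in shOpa1. Each knockdown library exceeded its same-numbered control, but the groups overlapped, with a log2 fold change of 0.30 (SE 0.189, adjusted p = 0.251). With the block the adjusted p was 5.86e-04. Astrocyte markers were lower in sum in shOpa1, and their part in the value of Pcx was not tested.

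Among 12 genes that control pyruvate entry, 11 were tested, 2 rose and 3 fell, with 5 and 5 in the block fit and a median log2 fold change of 0.08. Over all tested genes 18.9% were higher and 20.0% lower, or 28.8% and 30.7% with the block, so the count without the block is near the background. Pdp1, the phosphatase that switches pyruvate dehydrogenase on, fell from 53.8 ± 3.07 to 28.5 ± 2.08 CPM (SD, n = 3). Pdpr, a regulatory subunit of that phosphatase, rose from 27.7 ± 1.81 to 47.5 ± 0.538 CPM (SD, n = 3), and Pdk3, a kinase that switches the complex off, from 15.6 ± 1.27 to 23.3 ± 4.60 CPM (SD, n = 3). Other kinase and phosphatase genes went the other way. Mean levels of Pdk2 went from 27.0 to 18.4 CPM, of Pdk1 from 30.8 to 26.5 and of Pdp2 from 28.9 to 38.0, with overlapping groups. They did not pass without the block (adjusted p = 0.0556, 0.229 and 0.106) but passed with it (2.14e-05, 0.00847 and 1.25e-04). Lipt2 and Lipt1, which act in attaching the lipoyl group that Dlat and Dlst need, fell by 1.03 and 0.65 on the log2 scale (adjusted p = 0.00354 and 0.0483), from 4.49 and 3.54 CPM. The pairs of Lipt1 gave -0.04, -0.79 and -0.75, and it did not pass in the libraries numbered 1 and 2 alone (adjusted p = 0.0955). Lias, also on this list, was higher in shOpa1, at 35.3 against 30.0 CPM, and passed only with the block (adjusted p = 0.0544 without it, 0.00399 with it).

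Of 13 enzymes of the cycle in the mitochondrion, 6 rose and 2 fell, and 7 rose and 3 fell with the replicate block. All tested genes stood at 18.9% higher and 20.0% lower, or 28.8% and 30.7% with the block. The median log2 fold change of these 13 was 0.15. Idh3a, the catalytic subunit of the NAD-dependent isocitrate dehydrogenase (ENSMUSG00000032279, chromosome 9, 54586334 to 54604661, plus strand), rose the most, with levels of 187, 174 and 157 CPM in shControl and 275, 279.7 and 250.0 CPM in shOpa1. The groups stood well apart, and the log2 fold change was 0.64 (SE 0.0819, adjusted p = 0.00110). Its partner Idh3b, a regulatory and structural subunit, was at 184, 182 and 162 CPM in shControl and 223, 234 and 199 CPM in shOpa1. Idh3b rose by 0.31 (adjusted p = 0.0221), but did not pass without shControl replicate 2 or 3 or without shOpa1 replicate 1 or 2 (adjusted p = 0.0556, 0.0537, 0.0749 and 0.0840). The block fit of all 6 libraries gave Idh3b an adjusted p of 9.50e-05. Idh3g, the third subunit, was at 119.6, 116 and 98.1 CPM in shControl and 124, 127 and 104 CPM in shOpa1, overlapping, with a log2 fold change of 0.09 (SE 0.105, adjusted p = 0.527). The subunits of this enzyme shifted unequally. The ratio of Idh3a to Idh3g was 0.831, 0.801 and 0.850 in shControl and 1.18, 1.18 and 1.28 in shOpa1, and that of Idh3a to Idh3b 0.683, 0.646 and 0.652 in shControl and 0.832, 0.808 and 0.849 in shOpa1, neither overlapping (exact two-sided permutation test, p = 0.1 for each, the smallest possible).

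The NADP-dependent isocitrate dehydrogenases moved in opposite directions by compartment. Idh2, the mitochondrial enzyme, rose, with levels of 26.4, 25.4 and 25.4 CPM in shControl and 33.7, 36.9 and 34.1 CPM in shOpa1, with a log2 fold change of 0.44 (SE 0.0706, adjusted p = 0.00271). Idh1, the cytosolic and peroxisomal enzyme, fell, with levels of 309.8, 286 and 353 CPM in shControl and 217, 224 and 248 CPM in shOpa1, with a log2 fold change of -0.46 (SE 0.0924, adjusted p = 0.00693). Neither gene's groups overlapped. The ratio of Idh2 to Idh1 per kilobase was 0.0911, 0.0949 and 0.0770 in shControl and 0.167, 0.177 and 0.147 in shOpa1, a shift of 0.90 on the log2 scale (exact two-sided permutation test, p = 0.1, the smallest possible). Idh1 remained the more abundant transcript in all 6 libraries.

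In the 2-oxoglutarate dehydrogenase complex the core subunit fell and the dehydrogenases did not pass. Dlst, the succinyl-transferring core, fell, with levels of 231, 229 and 192 CPM in shControl and 177, 177 and 145 CPM in shOpa1. Its log2 fold change was -0.38 (SE 0.107, adjusted p = 0.0256), and it did not pass without shControl replicate 1 or 2 (adjusted p = 0.0850 and 0.0885) or when libraries were scaled by their totals alone (adjusted p = 0.0950). The block fit of all 6 libraries gave Dlst an adjusted p of 1.47e-05. Ogdh, the dehydrogenase, was at 214, 213 and 202 CPM in shControl and 201, 208 and 174 CPM in shOpa1, and Ogdhl, its brain-expressed paralog, at 124, 121 and 107 CPM in shControl and 134, 127 and 111 CPM in shOpa1. Both overlapped between groups and passed in neither fit (log2 fold changes -0.11 and 0.08, adjusted p = 0.306 and 0.558), and the sign of Ogdh turned when libraries were scaled by totals alone (0.013). The ratio of Ogdh to Dlst was 1.62, 1.63 and 1.84 in shControl and 1.99, 2.05 and 2.10 in shOpa1, and that of Ogdh to Ogdhl 1.31, 1.34 and 1.43 in shControl and 1.14, 1.25 and 1.19 in shOpa1. Both ratios separated the groups, by 0.27 and -0.19 on the log2 scale (exact p = 0.1 for each).

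Succinyl-CoA ligase pairs 1 alpha subunit, Suclg1, with a beta subunit that sets whether ATP (Sucla2) or GTP (Suclg2) is made. Suclg1 rose, with levels of 62.3, 62.4 and 56.3 CPM in shControl and 84.4, 86.3 and 73.8 CPM in shOpa1. Sucla2 rose likewise, at 135, 137 and 124 CPM in shControl and 186, 194 and 171 CPM in shOpa1, and neither overlapped. Their log2 fold changes were 0.43 (SE 0.0827, adjusted p = 0.00566) and 0.47 (SE 0.0707, adjusted p = 0.00207), and the ratio of Sucla2 to Suclg1 moved little, 2.51, 2.54 and 2.56 in shControl and 2.55, 2.60 and 2.68 in shOpa1, with overlap (difference 0.04, exact p = 0.2). Suclg2 was scarce, with 54 to 108 counts per library, and fell, with levels of 2.47, 4.04 and 3.60 CPM in shControl and 1.74, 2.02 and 1.96 CPM in shOpa1. Its log2 fold change was -0.82 (SE 0.222, adjusted p = 0.0226), which did not pass without shControl replicate 2 or 3 or shOpa1 replicate 1 or 2 (adjusted p = 0.0836, 0.0542, 0.0784 and 0.0605). The block fit of all 6 libraries gave Suclg2 an adjusted p of 0.00125. Sucla2 outnumbered Suclg2 per kilobase 63.2, 39.3 and 40.1 times in shControl and 124, 111 and 101 times in shOpa1 (exact p = 0.1). Summed astrocyte and dividing progenitor markers were lower in shOpa1 as well, and their part in the value of Suclg2 was not tested. The progenitor sum is mostly Eomes, Sox2 and Pax6 (mean 34.3, 24.2 and 9.62 CPM in shControl). On that list Pax6, Top2a and Cdk1 did not pass an adjusted p of 0.05, and Mki67 and Ccnb1 did not pass the low-count filter.

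The remaining steps of the cycle shifted modestly. Fh1, fumarase, was at 89.2, 97.6 and 84.7 CPM in shControl and 109, 118 and 99.7 CPM in shOpa1. It rose by 0.27 on the log2 scale (adjusted p = 0.0416), but did not pass without shControl replicate 1 or 3 or shOpa1 replicate 1 or 2 (adjusted p = 0.120, 0.103, 0.112 and 0.141). The block fit of all 6 libraries gave Fh1 an adjusted p of 4.25e-04. Cs was at 524, 520.4 and 500.5 CPM in shControl and 579, 586 and 545 CPM in shOpa1, a narrow separation. Its log2 fold change was 0.15 (SE 0.0566, adjusted p = 0.0776), and the adjusted p was 0.00840 with the block and 0.0460 without shOpa1 replicate 3. Mdh2, the mitochondrial malate dehydrogenase, was at 396, 387 and 314 CPM in shControl and 321, 330.0 and 242 CPM in shOpa1. The groups of Mdh2 overlapped, with shControl replicate 3 below 2 knockdown libraries. Its log2 fold change was -0.30 (SE 0.140, adjusted p = 0.138), and each pair was lower (-0.30, -0.23 and -0.37), which passed with the block (adjusted p = 1.35e-04).

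Of 10 further genes of the cycle and its side reactions, 9 were tested, 3 rose and 1 fell, near the 38.9% called over all tested genes, with a median log2 fold change of 0.23. The succinate dehydrogenase subunits Sdha, Sdhb and Sdhd rose by 0.45, 0.42 and 0.39 on the log2 scale. The remaining subunit, Sdhc, overlapped between groups, with a log2 fold change of 0.23 (adjusted p = 0.126, with the block 0.00218).

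Of the malate dehydrogenases the cytosolic one rose, whereas the mitochondrial one passed, as lower, with the block. Mdh1, the cytosolic enzyme (ENSMUSG00000020321, chromosome 11, 21556692 to 21572367, minus strand), rose, with levels of 531, 531 and 430.4 CPM in shControl and 822, 842 and 582 CPM in shOpa1. The knockdown library of replicate 3 lay nearest to the controls, and the pairs gave 0.63, 0.66 and 0.44. The log2 fold change of Mdh1 was 0.59 (SE 0.156, adjusted p = 0.0228), and the call was lost when shControl replicate 1, 2 or 3 or shOpa1 replicate 1 or 2 was left out (adjusted p = 0.0508, 0.0553, 0.0591, 0.0762 and 0.0770) or without the low-count filter (0.0631). With the replicate block its adjusted p was 2.54e-06. The ratio of Mdh2 to Mdh1 per kilobase was 0.557, 0.544 and 0.545 in shControl and 0.292, 0.293 and 0.311 in shOpa1. That ratio varied little within either group and shifted by -0.88 between them (exact two-sided permutation test, p = 0.1, the smallest possible), with -0.93, -0.89 and -0.81 in the 3 pairs.

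Among the malic enzymes, which turn malate into pyruvate, a mitochondrial one fell, and the other 2 passed with the block, the mitochondrial one as lower and the cytosolic one as higher. Me2, a mitochondrial form, fell, with levels of 16.9, 18.5 and 16.6 CPM in shControl and 12.5, 13.1 and 11.2 CPM in shOpa1, with a log2 fold change of -0.50 (SE 0.101, adjusted p = 0.00730). Me3, the other mitochondrial form, was at 31.4, 32.0 and 22.3 CPM in shControl and 24.4, 26.1 and 16.1 CPM in shOpa1, overlapping, with a log2 fold change of -0.37 (SE 0.214, adjusted p = 0.222) and an adjusted p of 4.44e-04 with the block. Me1, the cytosolic form, was at 44.8, 46.4 and 63.1 CPM in shControl and 57.1, 62.4 and 77.3 CPM in shOpa1. It was higher in each pair, but replicate 3 was high in both groups (log2 fold change 0.35, adjusted p = 0.135 without the block and 1.45e-04 with it). Within pairs the log2 differences of Me1 were 0.35, 0.42 and 0.29, but in fits without the block its value depended on single libraries. Without shControl replicate 3 Me1 passed without a block (0.52, adjusted p = 0.0236), and without shOpa1 replicate 3 its log2 fold change was 0.21 (adjusted p = 0.336). The ratio of Me2 to Me1 was 0.201, 0.212 and 0.139 in shControl and 0.116, 0.112 and 0.0766 in shOpa1, without overlap (difference -0.86, exact p = 0.1). The ratio of Me3 to Me2 overlapped (exact p = 0.5).

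Acly and Aco1, the cytosolic aconitase that doubles as iron regulatory protein, had small fold changes. Acly was at 614, 596 and 795 CPM in shControl and 668, 690.3 and 851 CPM in shOpa1 and Aco1 at 60.4, 57.5 and 67.6 CPM in shControl and 65.1, 64.5 and 70.0 CPM in shOpa1. Replicate 3 was the highest library in both groups for both genes. Their log2 fold changes were 0.14 and 0.11 (adjusted p = 0.467 and 0.331, with the block 0.0123 and 0.0891). The ratio of Cs to Acly did not separate the groups (difference 0.00, exact p = 1).

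The 4 steepest rises belonged to Gpt2, Aldh18a1, Asns and Pck2. Gpt2, the mitochondrial alanine aminotransferase (ENSMUSG00000031700, chromosome 8, 85492576 to 85527560, plus strand), rose, with levels of 36.8, 37.0 and 35.2 CPM in shControl and 89.6, 91.2 and 79.6 CPM in shOpa1. Every knockdown library held more than 2 times the level of every control library, and the log2 fold change was 1.26 (SE 0.0741, adjusted p = 6.07e-05). Aldh18a1, which makes the precursor of proline and ornithine from glutamate (ENSMUSG00000025007, chromosome 19, 40550257 to 40588463, minus strand), rose, with levels of 57.8, 58.6 and 58.3 CPM in shControl and 127, 125 and 136 CPM in shOpa1, with a log2 fold change of 1.15 (SE 0.0589, adjusted p = 3.58e-05). The control libraries of Aldh18a1 lay within 1 CPM of each other. Asns, asparagine synthetase (ENSMUSG00000029752, chromosome 6, 7675169 to 7693254, minus strand), rose, with levels of 189, 188 and 156 CPM in shControl and 338, 350.4 and 311 CPM in shOpa1, with a log2 fold change of 0.91 (SE 0.0908, adjusted p = 4.08e-04). Pck2, the mitochondrial enzyme that turns oxaloacetate into phosphoenolpyruvate (ENSMUSG00000040618, chromosome 14, 55540266 to 55551242, plus strand), rose, with levels of 13.1, 12.5 and 13.0 CPM in shControl and 21.9, 22.1 and 22.2 CPM in shOpa1, with a log2 fold change of 0.78 (SE 0.0765, adjusted p = 3.78e-04). Values of Pck2 within each group differed by less than 1 CPM.

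Got1, the cytosolic aspartate aminotransferase (ENSMUSG00000025190, chromosome 19, 43499752 to 43524605, minus strand), rose, with levels of 163, 158 and 142 CPM in shControl and 263, 272 and 226 CPM in shOpa1. Its groups stood apart and the log2 fold change was 0.72 (SE 0.0891, adjusted p = 9.74e-04). Got2, the mitochondrial form, was at 258, 287 and 249 CPM in shControl and 302, 313 and 291 CPM in shOpa1. Its groups were separated by a narrow margin, with a log2 fold change of 0.19 (SE 0.0698, adjusted p = 0.0667). The adjusted p was 0.00259 with the block and 0.0380 without shControl replicate 2. The ratio of Got2 to Got1 per kilobase was 0.834, 0.953 and 0.924 in shControl and 0.603, 0.606 and 0.677 in shOpa1, a shift of -0.52 on the log2 scale without overlap (exact two-sided permutation test, p = 0.1, the smallest possible). In both shuttle pairs the transcript of the cytosolic enzyme, Mdh1 or Got1, was higher relative to the mitochondrial one in every knockdown library than in any control.

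Glud1, glutamate dehydrogenase, was at 124, 126 and 119 CPM in shControl and 95.5, 103 and 65.0 CPM in shOpa1. All knockdown libraries lay below all controls, and shOpa1 replicate 3 was far below the other 2. The log2 fold change was -0.48 (SE 0.162, adjusted p = 0.0512), just short of the threshold, and Glud1 was called lower with the block (adjusted p = 0.0115), by DESeq2 (0.0162), by limma-voom (0.0451), and without shOpa1 replicate 3 (log2 fold change -0.31, adjusted p = 0.00982) or shOpa1 replicate 2 (-0.61, 0.0370). Processed copies named for these genes, Got2-ps1 and Glud-ps, held at most 1 count in any library.

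Pycr1, which completes proline synthesis after Aldh18a1 (ENSMUSG00000025140, chromosome 11, 120635712 to 120643769, minus strand), was at 11.2, 9.30 and 9.05 CPM in shControl and 11.9, 9.35 and 7.37 CPM in shOpa1. Its groups overlapped throughout, the log2 fold change was -0.05 (SE 0.187, adjusted p = 0.863), and the pairs gave 0.08, 0.01 and -0.28. The ratio of Aldh18a1 to Pycr1 per kilobase was 4.99, 6.09 and 6.23 in shControl and 10.3, 13.0 and 17.8 in shOpa1, without overlap (difference 1.22, exact p = 0.1). The ratio of Pck2 to Pcx overlapped between groups (exact p = 0.2).

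Sequence stretches before the start sites are shown for the enzymes that hold a match to TGATGNAA, the core of the C/EBP-ATF response element that ATF4 is known to bind, because Asns, Pck2 and Got1 rose while Pycr1 and Me3 did not. Windows of 300 bases (250 before to 50 after each start, RefSeq, GRCm38.p6) were found for 32 of the 34 enzymes, and not for Idh3a and Me2. A match on either strand stood in 5 of the 32, and in 4.51% of the 27025 genes with a window. Each line gives up to 60 bases, 5′ to 3′ on the gene's strand, with the match in capitals.
Asns, chr6:7693210-7693257, minus strand: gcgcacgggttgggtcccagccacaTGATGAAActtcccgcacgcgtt
Pck2, chr14:55540138-55540197, plus strand: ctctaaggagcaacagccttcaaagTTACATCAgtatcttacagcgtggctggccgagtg
Got1, chr19:43524673-43524732, minus strand: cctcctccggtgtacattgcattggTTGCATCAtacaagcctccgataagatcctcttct
Pycr1, chr11:120643817-120643876, minus strand: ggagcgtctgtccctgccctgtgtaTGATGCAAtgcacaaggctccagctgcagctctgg
Me3, chr7:89632759-89632817, plus strand: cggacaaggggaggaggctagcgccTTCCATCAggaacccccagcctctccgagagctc

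The matches begin 23 bases before the start in Asns, 103 in Pck2 and Pycr1, 102 in Got1 and 34 in Me3. The windows of Gpt2 and Aldh18a1, the enzymes with the steepest rise, held no match on either strand. Of the enzymes with a match, 3 rose (log2 fold changes 0.91, 0.78 and 0.72), and Pycr1 and Me3 did not pass (-0.05 and -0.37, Me3 being lower with the block). Among all 34 enzymes 38.2% rose, and among all tested genes 18.9%. A link between match and rise was not tested. A match is a run of letters and no measure of binding.

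A 7-base sequence, GAAACTA, was looked for in the 3′ untranslated regions, because an earlier search of these same fold changes had picked it out for its link with lower values in shOpa1. It stood in 9.63% of 13851 genes searched, whose median log2 fold change was -0.42, against 0.02 for genes without it. Of the 34 enzymes only Pycr1 holds it, once, from base 726 of a region of 1539 bases. The site is shown with 10 bases on either side and the sequence in capitals.
Pycr1, chr11:120636519-120636525 (capitals), minus strand, GRCm38: cacgatcacaGAAACTAtctgtagctg

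Pycr1, which also holds a TGATGNAA match, is one of the 5 enzymes that passed in neither fit. The 5 enzymes called lower, Pdhx, Dlst, Suclg2, Idh1 and Me2, held no copy of GAAACTA in the regions searched, nor did Mdh2, Me3 and Glud1, which were lower with the block.

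**Figure D3:**
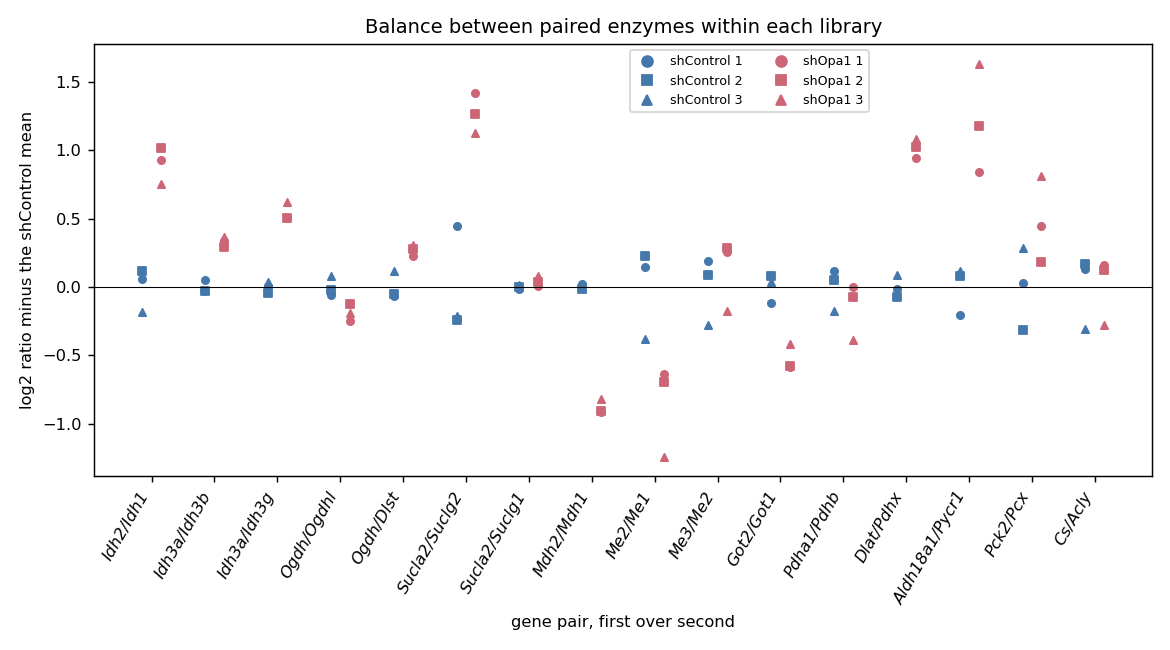
Log2 ratio of each of 16 gene pairs within each library, minus the shControl mean of that pair (y axis), for the pairs named on the x axis, with circles, squares and triangles for replicates 1, 2 and 3. The 3 shOpa1 points (red) lie apart from the 3 shControl points (blue) for 11 of the 16 pairs, among them Mdh2/Mdh1, Dlat/Pdhx and Got2/Got1.

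Over the 16 gene pairs compared in this way the groups did not overlap for 11, each with the smallest exact p that 3 against 3 libraries can give, 0.1, or 0.145 after Benjamini-Hochberg adjustment over the 16. The pairs were chosen with earlier results known, and no share over other gene pairs was computed. Of all tested genes taken singly, 25.8% were higher and 26.0% lower in shOpa1 without overlap. No ratio can pass 0.05 by this exact test with 3 against 3 libraries, and no other test was run on the ratios. The ratios do not depend on how libraries are scaled.

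Of 14 other genes of glutamate, GABA and aspartate metabolism, 12 were tested, 2 rose and 3 fell, with 4 and 7 in the block fit and a median log2 fold change of -0.17. These counts are near the shares over all tested genes without the block (18.9% higher, 20.0% lower), and with it all genes stood at 28.8% and 30.7%. Asl, which makes arginine, and Aldh5a1, which feeds the GABA carbon into the cycle, fell by 0.36 and 0.18 on the log2 scale. Gad2, a GABA-synthesising enzyme that is also on the neuron marker list, and Ass1, which joins aspartate to citrulline, rose by 0.34 and 0.56. The glutamine synthetase gene Glul, an astrocyte marker, was at 78.6 and 54.5 CPM and did not pass (adjusted p = 0.109), but was lower with the block (6.96e-06). Summed astrocyte markers were lower too, but that sum includes Glul, so these falls are not independent. The part of the other astrocyte markers in the value of Glul was not tested.

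Among 7 further proline genes 2 rose and 5 did not pass, where 38.9% of all tested genes were called, and all 7 log2 fold changes lay above 0 (median 0.16, lowest 0.03). Of all 16562 tested genes, 8157 had a log2 fold change above 0. Aldh4a1, which returns proline carbon to glutamate, rose from 23.9 ± 1.47 to 38.2 ± 3.89 CPM (SD, n = 3) and P4ha1, a prolyl hydroxylase of collagen synthesis, from 22.1 ± 2.26 to 29.7 ± 1.89 CPM (SD, n = 3). Pycr3, a paralog of Pycr1, did not pass, with a log2 fold change of 0.03 (adjusted p = 0.860).

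Of 9 carriers for citrate, malate, aspartate, glutamate and related metabolites, 8 were tested, 3 rose and 1 fell, where 38.9% of all tested genes were called, and the median log2 fold change was 0.10. Slc25a44, a carrier of branched-chain amino acids, rose by 0.37, Slc25a22, a glutamate carrier, by 0.47, and Slc25a13, an aspartate-glutamate carrier best known from liver, by 0.80 from 0.888 CPM. Slc25a13 rests on 20 to 62 counts per library, and it did not pass in the libraries numbered 1 and 2 alone (adjusted p = 0.0891). Slc25a18, a glutamate carrier known from astrocytes, fell by 2.47, from 1.83 ± 1.12 to 0.327 ± 0.0885 CPM (SD, n = 3). Slc25a18 rests on 26, 34 and 84 counts in shControl and 9, 9 and 14 in shOpa1. Its pairs gave -1.01, -1.21 and -1.96 on log2(CPM + 0.5). Summed astrocyte markers were also lower, and their part in this fall was not tested. Slc25a12, the aspartate-glutamate carrier best known from brain and muscle, had a log2 fold change of -0.08 (adjusted p = 0.247).

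Targets and partners of the integrated stress response, which acts through ATF4, were measured beside the biosynthetic enzymes. Of 14 listed, 13 rose, where 18.9% of all tested genes did, and 1, Cebpg, fell by 0.59, with a median log2 fold change of 1.80. Atf4 itself rose by 0.93, Ddit3 by 1.60, Chac1 by 1.96, and the serine and folate enzymes Psat1 and Mthfd2 by 1.74 and 2.35. This list was known to rise in these libraries when it was written down, so its direction is not independent evidence.

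**Figure D4:**
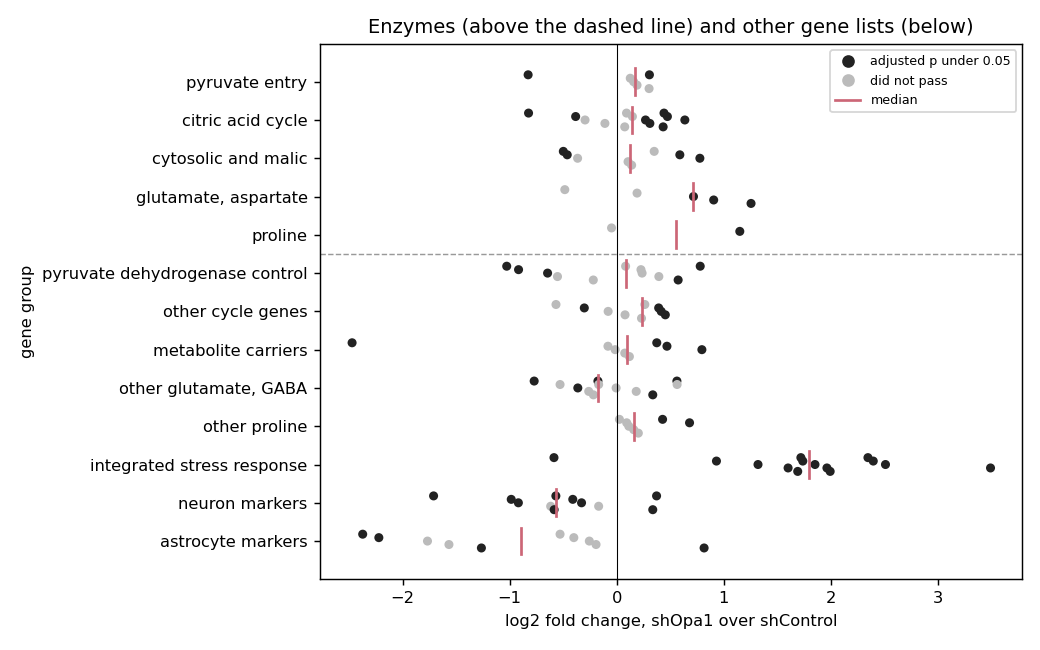
Log2 fold change (x axis) of the enzymes by role, above the dashed line, and of other gene lists, below it (y axis), with 1 point per tested gene, black where it passed an adjusted p of 0.05, and the median as a red bar. Medians are 0.72 for the glutamate and aspartate enzymes, 1.80 for the integrated stress response list, -0.57 for neuron markers and -0.90 for astrocyte markers.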

How the data were processed

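Counts of read pairs were deposited unnormalised. The authors made them with featureCounts 1.6.0 from GRCm38 gene annotation of Ensembl (release 99), per the file headers. The kit marks strand, but the command has no strand option, so reads of overlapping genes on opposite strands cannot be told apart. HISAT2, DESeq2 and the mm10 build are named in the submitters' processing notes, without tool versions. A second table deposited by the authors holds log2 fold changes with errors, a score, p-values and counts divided by size factors (a normalised signal), of which only the log2 fold changes and p-values of the 34 enzymes were used, as a count of calls.

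Genes were paired with symbols through a reference table (55144 of 55471). Pycr3 was matched as Pycrl. Counts were fitted with edgeR 4.0.16 (R 4.3.3): TMM scaling, the default low-count filter (16562 genes), robust quasi-likelihood test, group as the only term, adjusted p under 0.05. A standard error is the log2 fold change over the square root of F. Pair differences use log2(CPM + 0.5). Ratios are of CPM per kilobase of exon and were tested by exact permutation of libraries. Libraries sharing a number deviated alike from their groups (correlations 0.595, 0.608 and 0.713 across genes), which was read as pairing, and the number was also fitted as a block. Alternatives were other scalings, no filter, DESeq2 1.42.0, limma-voom (limma 3.58.1), a second batch for replicate 3, and leaving out libraries. The fits were tested on simulated data. Python 3.11.15 was used for the rest.

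The enzymes, the 6 pathway and 6 marker lists, the gene pairs and the motif were chosen with earlier results of these data known. Every enzyme is reported, and those that passed are given in each library. From each pathway list up to 4 called genes per direction with the smallest p were named. Some listed genes are counted but not reported here by name. Pdk1, Pdk2, Pdp2, Lias, Sdhc, Glul, Slc25a12, Pycr3 and Atf4 fall outside that rule and were named after their values were seen. The astrocyte and progenitor markers named here were also chosen after their values were seen. The labels do not say what separates the replicates, such as dissections or cultures, so each p-value reflects spread among these 6 libraries, which may be technical.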

Additional observations from a re-analysis of the deposited data

How the results depend on the processing

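The counts of enzymes called higher and lower, 13 and 5, were 21 and 8 with the replicate block, 21 and 8 with replicate 3 as a second batch, and 20 and 8 in pairs 1 and 2 alone, and the block ended none of the 18 calls. They stayed within 1.5 times under the other scalings, without the filter and by DESeq2 and limma-voom (12 to 17 higher, 4 to 6 lower). With library totals alone Dlat, Cs, Me1 and Got2 were also called and Dlst was not. Leaving out 1 library gave 10 to 15 higher and 3 to 6 lower, with 3 lower without shControl replicate 2. The median log2 fold change ran from 0.16 to 0.21 when 1 library was left out. It was 0.30 with library totals alone, a scaling that moved the median of all genes by 0.12. The enzymes called in all 16 fits were Pdhb, Idh2, Idh3a, Sucla2, Suclg1, Pck2, Got1, Gpt2, Asns and Aldh18a1 (10, higher) and Pdhx, Idh1 and Me2 (3, lower). Shares of calls over all tested genes were computed only for the fit that gave 13 and 5 and for the replicate block. The other counts here therefore cannot be set against a background. Signs turned only for Ogdh, Pycr1 and the ratios Me3/Me2 and Cs/Acly. Ogdh turned with totals alone (0.013). Pycr1 turned with totals alone (0.076), in pairs 1 and 2 (0.055) and without single libraries (-0.24 to 0.11). The ratio Me3/Me2 turned without single libraries (-0.015 to 0.27). Cs/Acly turned without single libraries (-0.15 to 0.14) and in pairs 1 and 2 (-0.0083). The cause was not tested. As differences within pairs, the ratios have a smallest exact sign-flip p of 0.25, so that test cannot call them, and no other paired test was run on them. At 54 to 108 counts per library, Suclg2 is the enzyme most limited by depth.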
